A study of Mus musculus with 6 samples.

Results

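The adhesion G protein-coupled receptors were examined in 6 expression arrays of bone marrow cells, as all genes whose symbol begins with Adgr, a subfamily letter and a number, or with Celsr and a number. This choice by name gave 27 of the 22180 genes tested, from 28 probes. They fell into subfamilies A (3 genes), B (3), C, the Celsr genes (3), D (1), E (2), F (4), G (6), L (4) and V (1). Adgrf3 and Adgrg5 had no probe listed for them and the probe of Adgre5 also carried another gene, so these 3 genes were not analysed here.

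All cells came from young mice of a C57Bl6 background, at postnatal day 27, that carried a tamoxifen-inducible Cre recombinase driven by Cdh5, the gene of the endothelial junction protein VE-cadherin, and a YFP reporter at Rosa 26. Tamoxifen was given to all of them on days 1, 2 and 3 after birth, 26 days before collection counted from the first dose. The LSK gate lacks lineage markers, carries Sca-1 and Kit and holds blood stem and multipotent progenitor cells. From it, 3 samples of YFP-positive and 3 of YFP-negative cells were taken. YFP marks any cell in which Cre had acted and the descendants of such a cell. The mark therefore follows past as well as present activity of the Cdh5 promoter, and mature endothelium is marked too. The labels do not tie the replicates to separate animals, and the p-values therefore rest on the variation among these samples, part of which may be technical. The comparison asks how cells of the LSK gate that carry this mark differ from those that do not. Marked cells may be blood progenitors or endothelial cells, and the sort does not separate them.

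Adhesion receptors join a long extracellular part, which binds matrix or proteins of neighbouring cells, to a membrane-spanning G protein-coupled receptor. Many cut themselves just outside the membrane, which leaves a short tethered stretch that can switch the receptor on when the outer part is pulled away. They signal through several classes of G protein, and many also bind arrestins. In blood and vessels they are known from endothelial members (Adgrf5, Adgrl4, Adgra2), from Adgrg1 on blood stem cells, and from myeloid members such as Adgre1, a surface antigen of macrophages.

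The 6 arrays had medians between 3.62 and 3.68 on the log2 scale over all probes. A level at or below these medians was taken as one that cannot be told from background. No control probe or detection call was used to set this limit. Across genes, Pearson's r was 0.946 to 0.968 within a population and 0.888 to 0.924 between populations. Cdh5 measured 11.29 to 11.84 in YFP-positive and 3.71 to 5.40 in YFP-negative arrays, on the same side as the sort. Kit, which defines the gate, was above the array medians everywhere, at 6.56 to 7.06 in YFP-positive and 7.57 to 7.96 in YFP-negative arrays. It was lower in YFP-positive cells, close to the threshold (-0.89, adjusted p = 0.0496 in the limma test described below). The other gate protein's gene, Ly6a, had no value. YFP-positive replicate 3 stood apart in Ptprc, which encodes the leukocyte protein CD45: it measured 9.52 there, 6.52 and 6.95 in the other YFP-positive arrays, and 9.23 to 9.37 in the YFP-negative arrays. RNA of the neutrophil lineage was present in both populations, with 11 marker genes summing to a log2 level of 13.45 to 14.58 in YFP-positive and 12.42 to 14.33 in YFP-negative arrays. No gene of the megakaryocyte, erythroid, mesenchymal, T and NK cell, or eosinophil, basophil and mast cell marker lists passed the limma test described next. In these lists 0, 1, 4, 2 and 1 genes had an unadjusted p under 0.05. Of 5 B lymphoid genes 1 fell, Cd79b (20%, against 1.96% of all genes). The eosinophil, basophil and mast cell genes summed to 10.59 in YFP-positive and 10.27 in YFP-negative replicate 3, and to 6.37 to 8.03 in the other arrays. Their gene Prg2 measured 10.46 and 9.54 in those replicate 3 arrays.

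In YFP-positive cells 4 receptors were higher and 2 were lower. Of the 27 receptors, 14 had means below the median of all probes in both populations. A filter for genes above that median kept 13 of the 27 receptors and 12855 of all 22180 genes. Low levels were thus common outside the family too. With limma, 6 of the 27 receptors (22.2%) passed an adjusted p of 0.05, against 4.84% of all genes tested. Adgrf5, Adgrg6, Adgrl2 and Adgra2 rose, which is 14.8% of the members against 2.88% of all genes. Adgrg1 and Adgrg7 fell, which is 7.41% against 1.96%. The median difference, YFP-positive minus YFP-negative, was 0.06 over the members and -0.01 over all genes. A difference of at least 1 in either direction was measured in 5 members (18.5%) and in 8.79% of all genes. The groups of arrays did not overlap for 11 members (40.7%), against 22.7% of all genes. In bulk samples such as these, fewer cells of a type and less RNA per cell cannot be told apart.

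**Figure D1:**
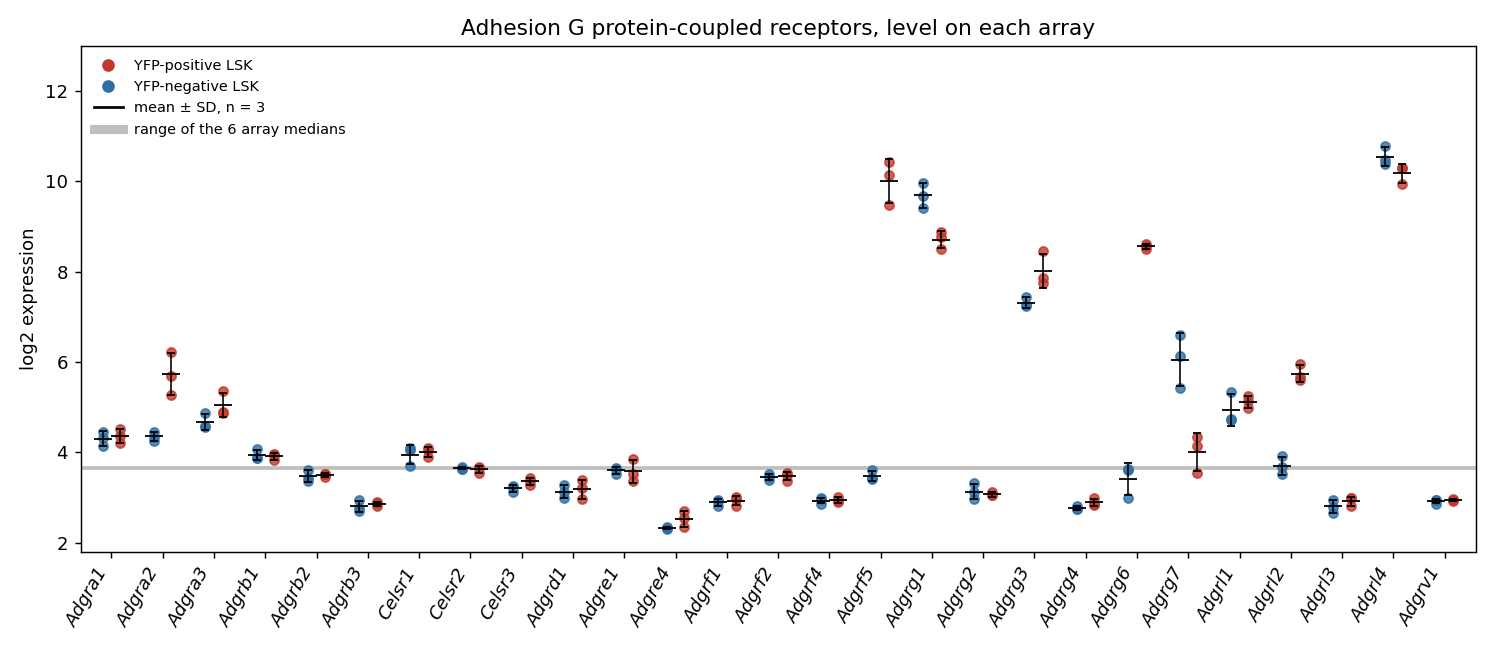
Log2 expression of the 27 receptors on each array, ordered by subfamily. Points are arrays, black bars are mean ± SD of 3 arrays, and the grey band spans the 6 array medians (3.62 to 3.68). Adgrf5, Adgrg6 and Adgrl2 leave the band in YFP-positive cells and lie at or close to it in YFP-negative cells, while Adgrg1, Adgrg3 and Adgrl4 lie well above it in both. Levels of different genes come from different probes and are not comparable with each other.

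The DNA just upstream of the start sites is shown for the members that passed the test and have an entry in the RefSeq promoter table of build GRCm38.p6, and for Adgrl4, the immediate neighbour of Adgrl2. The table matched 21 of the 27 members and 5 of the 6 that passed, with no entry for Adgra2. Each line gives the 250 bases before an annotated start, 5′ to 3′ on the gene's strand. Adgrf5 and Adgrg1 have a second start in the table, and the one with the lower coordinate is printed. Capitals mark AGGAAG, a core sequence bound by ETS factors of blood and endothelium, or AGATAA, bound by GATA factors, on either strand.
Adgrf5, chr17:43360181-43360430, plus strand: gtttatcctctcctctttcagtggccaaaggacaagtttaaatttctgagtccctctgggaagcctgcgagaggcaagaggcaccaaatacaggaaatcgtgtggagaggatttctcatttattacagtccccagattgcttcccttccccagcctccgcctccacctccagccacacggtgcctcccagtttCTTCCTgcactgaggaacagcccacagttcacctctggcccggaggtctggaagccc
Adgrg6, chr10:14545037-14545286, minus strand: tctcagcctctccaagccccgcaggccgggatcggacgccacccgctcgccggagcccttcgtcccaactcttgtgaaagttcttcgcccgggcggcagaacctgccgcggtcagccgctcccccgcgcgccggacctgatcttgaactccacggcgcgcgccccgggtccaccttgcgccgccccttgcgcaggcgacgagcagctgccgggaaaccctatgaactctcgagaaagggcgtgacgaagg
Adgrl2, chr3:148954636-148954885, minus strand: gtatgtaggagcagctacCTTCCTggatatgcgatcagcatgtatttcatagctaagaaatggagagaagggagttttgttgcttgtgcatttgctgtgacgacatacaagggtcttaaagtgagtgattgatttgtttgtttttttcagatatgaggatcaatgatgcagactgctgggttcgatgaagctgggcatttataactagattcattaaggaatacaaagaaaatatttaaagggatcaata
Adgrg1, chr8:94976859-94977108, plus strand: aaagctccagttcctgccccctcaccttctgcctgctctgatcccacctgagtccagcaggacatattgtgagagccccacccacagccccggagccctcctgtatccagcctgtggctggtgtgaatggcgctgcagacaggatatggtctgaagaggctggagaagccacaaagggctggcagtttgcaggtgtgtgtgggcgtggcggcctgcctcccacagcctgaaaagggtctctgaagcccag
Adgrg7, chr16:56795859-56796108, minus strand: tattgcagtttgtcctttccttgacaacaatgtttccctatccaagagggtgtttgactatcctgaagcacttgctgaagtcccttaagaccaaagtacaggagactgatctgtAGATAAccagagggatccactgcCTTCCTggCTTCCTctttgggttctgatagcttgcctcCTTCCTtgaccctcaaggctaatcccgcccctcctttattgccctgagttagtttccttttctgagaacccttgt
Adgrl4, chr3:151437632-151437881, plus strand: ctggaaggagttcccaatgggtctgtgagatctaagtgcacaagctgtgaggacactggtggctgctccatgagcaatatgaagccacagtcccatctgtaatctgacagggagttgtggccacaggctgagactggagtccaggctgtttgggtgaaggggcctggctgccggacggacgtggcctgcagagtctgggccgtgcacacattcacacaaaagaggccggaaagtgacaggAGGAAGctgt

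AGGAAG or its complement CTTCCT stood in the printed windows of Adgrf5, Adgrl2, Adgrg7 and Adgrl4, and neither in the second window of Adgrf5, nor in either window of Adgrg1, nor in that of Adgrg6. It was thus found in 3 of the 7 windows of the receptors that passed and in 8 of the 25 windows of all members, while 29.5% of the 32851 windows in the table hold it. AGATAA was found upstream of Adgrg7 among these genes and in 9.99% of all windows. The Adgrg6 window was rich in G and C (69.6%) and that of Adgrl2 poor in them (37.6%), where the median of all windows was 52.4%. These matches describe letters and do not show that a factor binds.

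Adgrf5 is a receptor known from the lung, where it restrains surfactant, and from the endothelium of many organs. Its YFP-positive levels were 10.14, 10.43 and 9.47 for replicates 1, 2 and 3, against 3.60, 3.40 and 3.42 in the YFP-negative replicates. All YFP-positive arrays were thus far above the array medians and all YFP-negative arrays below them. The difference was 6.54 ± 0.25 (SE, 95% interval 5.93 to 7.16) or 93.1-fold (limma adjusted p = 0.000193). The fold can understate the change, because the YFP-negative levels lay below the limit taken for background. The lowest YFP-positive value was in replicate 3. That array also had the lowest sum of 17 endothelial marker genes (13.45, against 13.92 and 14.01 in replicates 1 and 2). Its sum of 10 broad leukocyte genes was the highest (12.68, against 10.82 and 11.14). A link between these values and Adgrf5 was not tested. Without YFP-positive replicate 3 the difference of Adgrf5 was 6.81 (adjusted p = 0.000177).

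Adgrg6 is best known for starting myelination in Schwann cells and is also found in endothelium. Its levels were 8.50, 8.62 and 8.56 in YFP-positive replicates 1, 2 and 3, and 3.64, 2.99 and 3.60 in the YFP-negative ones. The YFP-positive arrays had an SD of 0.06, with replicate 3 between the other two, and each YFP-negative array was below its own median. Adgrg6 rose by 5.15 ± 0.19 (SE, 95% interval 4.68 to 5.62) or 35.5-fold (adjusted p = 0.000193), and here too the fold can understate the change. Set against the YFP-negative mean, the 3 YFP-positive arrays gave 5.09, 5.21 and 5.15 for Adgrg6.

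Adgrl2 belongs to the latrophilins, receptors of teneurins and FLRT proteins that act at synapses and at endothelial contacts. It measured 5.95, 5.60 and 5.67 in YFP-positive arrays and 3.91, 3.67 and 3.51 in YFP-negative arrays, which lie around the array medians. The lowest YFP-positive value exceeded the highest YFP-negative one by 1.69. The rise was 2.05 ± 0.16 (SE) or 4.13-fold (adjusted p = 0.00203).

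Adgra2 serves with Reck as a co-receptor for Wnt7 ligands in the growth of brain vessels. Its levels were 5.70, 6.22 and 5.27 in YFP-positive and 4.46, 4.24 and 4.34 in YFP-negative arrays. The groups did not overlap, and replicate 3 was again the lowest YFP-positive array. Adgra2 rose by 1.39 ± 0.24 (SE) or 2.61-fold (adjusted p = 0.0341). Leaving out YFP-positive replicate 1 or any YFP-negative array ended the call (adjusted p = 0.0952 to 0.12), whereas it held when YFP-positive replicate 2 or 3 was omitted (0.0479 and 0.0142).

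Endothelial marker genes were also higher in YFP-positive cells. Of the 17 endothelial marker genes, 15 were higher past the threshold in YFP-positive cells and 0 were lower, with a median difference of 3.21. At an unadjusted p under 0.05 all 17 were higher. Their summed log2 level ran from 13.45 to 14.01 in YFP-positive and from 9.82 to 10.57 in YFP-negative arrays, and none of them had both means below the median of all probes. Their part in the rise of the receptors was not tested.

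**Figure D2:**
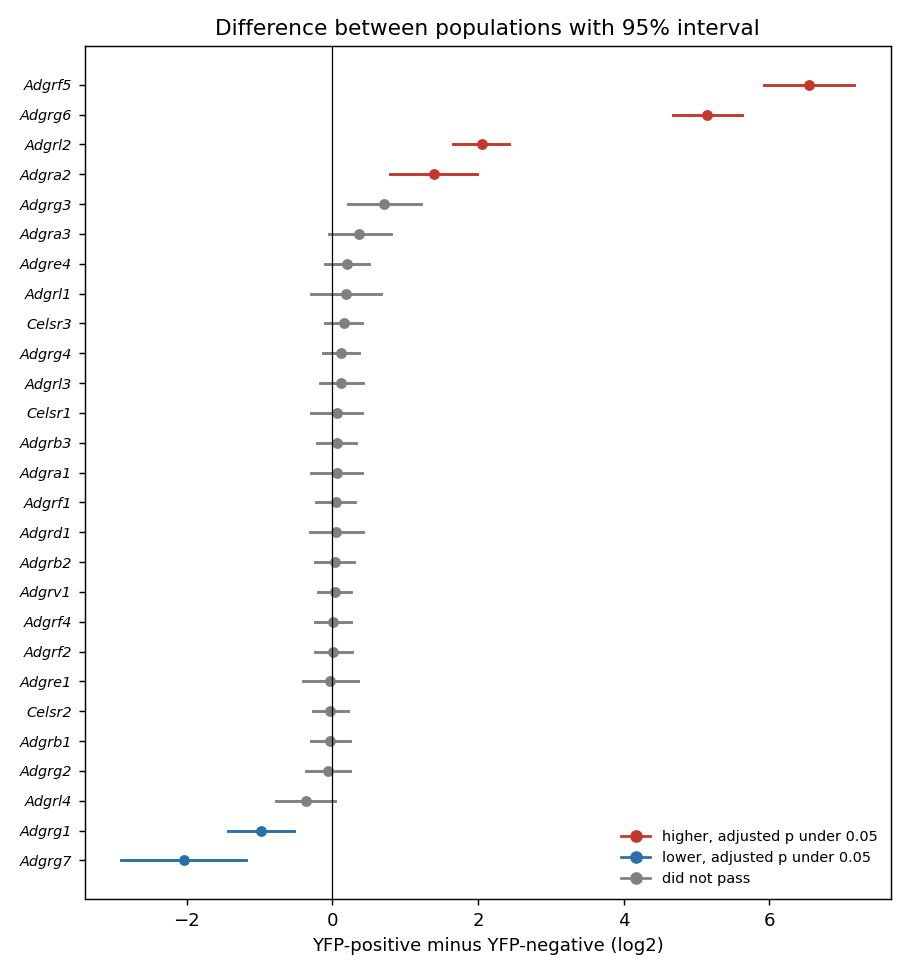
Difference between YFP-positive and YFP-negative LSK cells for each of the 27 receptors (log2), with its 95% interval from limma, sorted by size. Adgrf5 (6.54) and Adgrg6 (5.15) lie far to the right, Adgrl2 and Adgra2 follow, Adgrg1 and Adgrg7 lie to the left, and 20 of the 21 intervals of the other receptors stay between -1 and 1.

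Adgrg1, a receptor of blood stem cells and of the developing brain, was well measured in both populations. Its levels were 8.76, 8.87 and 8.50 in YFP-positive and 9.68, 9.97 and 9.40 in YFP-negative arrays, without overlap. The difference was -0.98 ± 0.18 (SE, 95% interval -1.43 to -0.53), or 1.97-fold lower (adjusted p = 0.0407). This call was close to the threshold. It held without YFP-negative replicate 3 (adjusted p = 0.0479) and was lost without each of the other arrays (0.0798 to 0.128), with quantile normalization (-0.88, adjusted p = 0.0645) and with a prior variance that follows the level (0.0534).

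Adgrg7, an orphan receptor known from the intestine, measured 4.34, 3.54 and 4.15 in YFP-positive and 5.42, 6.60 and 6.13 in YFP-negative arrays. The YFP-positive arrays lay near the array medians, 1 of them below its own. Adgrg7 fell by 2.04 on the log2 scale (SE 0.35, 4.12-fold, adjusted p = 0.0312). It held without YFP-negative replicate 1 (adjusted p = 0.0334) and was lost without each of the other arrays (0.0605 to 0.0932), while the measured difference stayed between -2.36 and -1.77.

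Of 9 stem cell and gate genes, 6 fell past the threshold and 0 rose (median -1.80; 0 rose at an unadjusted p under 0.05). Their summed log2 level was 9.02 to 9.48 in YFP-positive and 11.33 to 11.57 in YFP-negative arrays. Of 10 broad leukocyte genes, 1 fell past the threshold and 0 rose (median -1.40; 0 rose at an unadjusted p under 0.05), with sums of 10.82, 11.14 and 12.68 in YFP-positive replicates 1, 2 and 3 and of 12.41 to 12.51 in YFP-negative arrays. The part of either list in the fall of the receptors was not tested. In YFP-positive replicate 3, whose leukocyte sum was above those of the YFP-negative arrays, Adgrg1 differed from the YFP-negative mean by -1.19 and Adgrg7 by -1.90. In replicates 1 and 2 these values were -0.93 and -0.82 for Adgrg1 and -1.71 and -2.51 for Adgrg7. Without replicate 3 the differences were -0.88 for Adgrg1 and -2.11 for Adgrg7 (adjusted p = 0.0832 and 0.0605).

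Of the receptors that did not pass, 7 had a mean above the median of all probes in either population. Adgrl4 and Adgrg3 lay well above it, while others of the 7 lay close to it. Adgrl4, a receptor of endothelium that responds to vascular growth factor signals, stood at 10.29, 10.30 and 9.94 in YFP-positive and at 10.47, 10.79 and 10.38 in YFP-negative arrays. Its level was therefore high in the population in which Cdh5 averaged 4.55. The measured difference was -0.37 ± 0.17 (SE, 95% interval -0.78 to 0.03, adjusted p = 0.335), against 7.03 for Cdh5. The interval includes 0, so a direction is not established. The upper bound of 0.03 lies below the measured rises of Adgrl2 and Adgra2. Adgrl4 and Adgrl2 are immediate neighbours in the RefSeq gene order, with 0 protein-coding genes between them.

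Adgrg3, a receptor of granulocytes, measured 8.45, 7.76 and 7.85 in YFP-positive and 7.23, 7.45 and 7.26 in YFP-negative arrays. The groups did not overlap, but the difference of 0.71 ± 0.21 (SE, 95% interval 0.21 to 1.21) did not pass (adjusted p = 0.139). Adgrg1 and Adgrg3 are also direct neighbours, and their measured differences had opposite signs. The neutrophil markers had a median difference of 0.73, with 0 of 11 past the threshold (2 at an unadjusted p under 0.05, both lower). Their sum was highest in YFP-positive replicate 3 (14.58), and Adgrg3 was highest in replicate 1. The part of neutrophil RNA in the level of Adgrg3 was not tested.

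Adgra3, an orphan receptor linked to planar polarity, measured 5.35, 4.90 and 4.88 against 4.56, 4.87 and 4.58 (0.37, adjusted p = 0.352). Its groups were separated by only 0.02. Adgrl1, another latrophilin, measured 5.24, 4.99 and 5.13 against 4.74, 4.71 and 5.34 and overlapped (0.19, adjusted p = 0.726). Adgra1, a receptor of the brain, measured 4.20, 4.52 and 4.36 against 4.32, 4.13 and 4.46 (0.06, adjusted p = 0.899). Celsr1, a cadherin of planar cell polarity, measured 4.09, 3.89 and 4.04 against 4.06, 4.09 and 3.69 (0.06, adjusted p = 0.907). Adgrb1, which binds apoptotic cells for engulfment, measured 3.97, 3.93 and 3.83 against 3.87, 4.07 and 3.88 (-0.03, adjusted p = 0.944). In these last 4 receptors the groups of arrays overlapped.

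The other 14 receptors had means below the median of all probes (3.65) in both populations, with array levels between 2.31 and 3.86. They were Adgrb2, Adgrb3, Adgrd1, Adgre1, Adgre4, Adgrf1, Adgrf2, Adgrf4, Adgrg2, Adgrg4, Adgrl3, Adgrv1, Celsr2 and Celsr3. Their differences ran from -0.06 to 0.20, none passed, and at such levels these arrays cannot show whether the genes were transcribed. Adgre1, the macrophage antigen, measured 3.36, 3.51 and 3.86 in YFP-positive and 3.51, 3.66 and 3.64 in YFP-negative arrays (-0.03, adjusted p = 0.962). Of 10 macrophage markers 4 were also below the median in both populations, and 1, the engulfment receptor Mertk, rose past the threshold (1.74, adjusted p = 0.046). Adgrf1, the immediate neighbour of Adgrf5, stayed between 2.80 and 3.00 on all arrays. Adgrv1, a very large protein of hair cells, stayed between 2.86 and 2.96. Adgrg4 and Celsr3 had groups that did not overlap, each by only 0.02.

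By subfamily, the passing genes were spread out. Subfamily G held 3 of them in both directions (Adgrg6 higher, Adgrg1 and Adgrg7 lower), and A, F and L held 1 each. In subfamily F the differences of the other 3 members, Adgrf1, Adgrf2 and Adgrf4, were 0.05, 0.01 and 0.01. Of the 21 receptors that did not pass, 17 had a 95% interval between -0.5 and 0.5 and 20 between -1 and 1, the exception being Adgrg3.

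**Figure D3:**
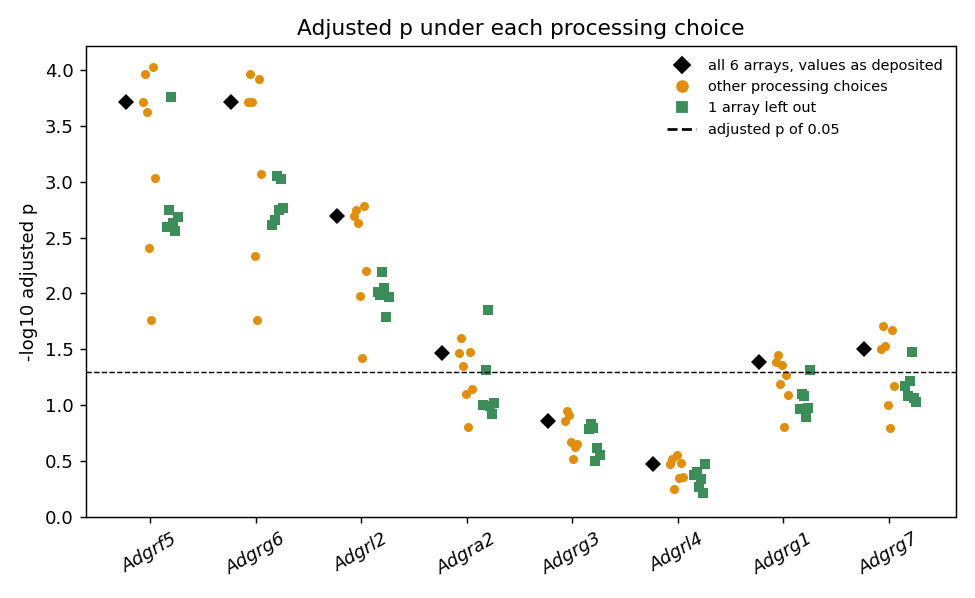
Minus log10 of the adjusted p from limma for 8 receptors under each processing choice; the dashed line is an adjusted p of 0.05. Diamonds are the fit reported here, circles the 7 other choices, squares the 6 fits without 1 array. Adgrf5, Adgrg6 and Adgrl2 stay above the line in all of these, Adgra2, Adgrg1 and Adgrg7 cross it, and Adgrg3 and Adgrl4 stay below it.

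The genes known to work with these receptors were read from 3 lists. Of 27 listed ligands and binding partners 25 were measured, of which 3 rose, 1 fell and 21 did not pass (12% higher and 4% lower, against 2.88% and 1.96% of all genes; median difference 0.03). Cd55, the complement regulator that the receptor Adgre5 binds, measured 7.17, 7.47 and 6.88 in YFP-positive and 4.63, 4.22 and 4.47 in YFP-negative arrays, a rise of 2.73 ± 0.19 (SE, adjusted p = 0.0015). Tgm2, a transglutaminase that binds Adgrg1, measured 8.91, 8.24 and 7.79 against 5.02, 5.09 and 6.49 (2.78 ± 0.48, adjusted p = 0.0307). Cd81, a tetraspanin found in complex with Adgrg1, measured 11.51, 11.23 and 11.08 against 10.08, 9.71 and 10.01 (1.34 ± 0.16, adjusted p = 0.0113). Other partners of Adgrg1 did not pass, with differences of 0.03 for its collagen ligand Col3a1 (adjusted p = 0.955) and 0.31 for the tetraspanin Cd9 (adjusted p = 0.769).

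Thy1, which Adgre5 also binds, fell by 0.99 on the log2 scale (4.57, 4.25 and 4.08 against 5.40, 5.11 and 5.35, adjusted p = 0.0292). The groups of arrays did not overlap for any of these 4 partners, as for 22.7% of all genes. The 4 were picked by passing the test, so the lack of overlap is no separate support. Calls of Cd55 and Cd81 held without each array in turn (highest adjusted p = 0.0108 and 0.0432). The call of Tgm2 held only without YFP-positive replicate 3 and YFP-negative replicate 3, and the call of Thy1 only when YFP-positive replicate 1 was omitted (adjusted p up to 0.109 and 0.105).

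Col4a1, a chain of the basement membrane collagen that binds Adgrg6, measured 7.73, 6.17 and 5.74 against 4.46, 4.67 and 3.76 and did not pass (2.25 ± 0.54, adjusted p = 0.0845). Of the latrophilin ligands, Flrt2 measured 4.83, 7.28 and 4.49 against 3.58, 3.30 and 3.39 (adjusted p = 0.20), with YFP-positive replicate 2 far above the others. Without that array it passed (1.24, adjusted p = 0.0355). The 4 teneurin genes had differences between -0.04 and 0.10 at levels below 3.65 on every array. Reck, the partner of Adgra2, measured 4.69, 4.78 and 5.15 against 4.39, 4.76 and 4.62 (0.28, adjusted p = 0.492), and the ligand genes Wnt7a and Wnt7b differed by 0.17 and 0.04 (adjusted p = 0.557 and 0.933).

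Of 20 genes of G proteins, exchange factors and arrestins, 3 rose, 0 fell and 17 did not pass (15% higher, median difference 0.19; 0 fell at an unadjusted p under 0.05). Gna11, a G protein alpha subunit of the Gq class, measured 9.05, 9.18 and 7.23 against 4.56, 4.50 and 5.18 (3.74 ± 0.55, adjusted p = 0.0194), with replicate 3 the lowest YFP-positive array. Arhgef12, an exchange factor that binds G protein subunits of the G12 class, measured 6.96, 6.83 and 5.78 against 4.09, 4.49 and 3.79 (2.40 ± 0.36, adjusted p = 0.0197). Dock1, an exchange factor of Rac that acts downstream of Adgrb1 in engulfment, measured 6.69, 6.91 and 6.15 against 4.63, 4.08 and 4.17 (2.29 ± 0.25, adjusted p = 0.00704). Its partner Elmo1 measured 9.08 to 9.19 in YFP-positive and 9.25 to 9.52 in YFP-negative arrays and did not pass (adjusted p = 0.37).

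Gna12 and Gna13, the subunits of the G12 class, differed by 1.73 and -0.09 without passing (adjusted p = 0.194 and 0.916). Gna12 spread from 4.38 to 6.52 among the YFP-negative arrays. The call of Dock1 held without each array (highest adjusted p = 0.0368). Those of Gna11 and Arhgef12 held only without YFP-positive replicate 3 (0.00159 and 0.00495), and without any other single array their adjusted p ran up to 0.0791 and 0.0795.

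Of 13 planar cell polarity genes that work with the Celsr cadherins, 2 rose, 0 fell and 11 did not pass (15.4% higher, median 0.22; 0 fell at an unadjusted p under 0.05). Prickle2 measured 4.38, 4.61 and 4.02 against 3.47, 3.23 and 3.44 (0.95 ± 0.18, adjusted p = 0.0397), and Prickle1 5.55, 5.21 and 5.08 against 4.54, 4.56 and 4.28 (0.82 ± 0.16, adjusted p = 0.0496). Prickle1 lost its call without any 1 of the 6 arrays (0.0506 to 0.128) and Prickle2 without each array but YFP-positive replicate 3 (up to 0.131). Vangl2, a core membrane protein of the same pathway, averaged 3.36 in both populations (adjusted p = 0.998).

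**Figure D4:**
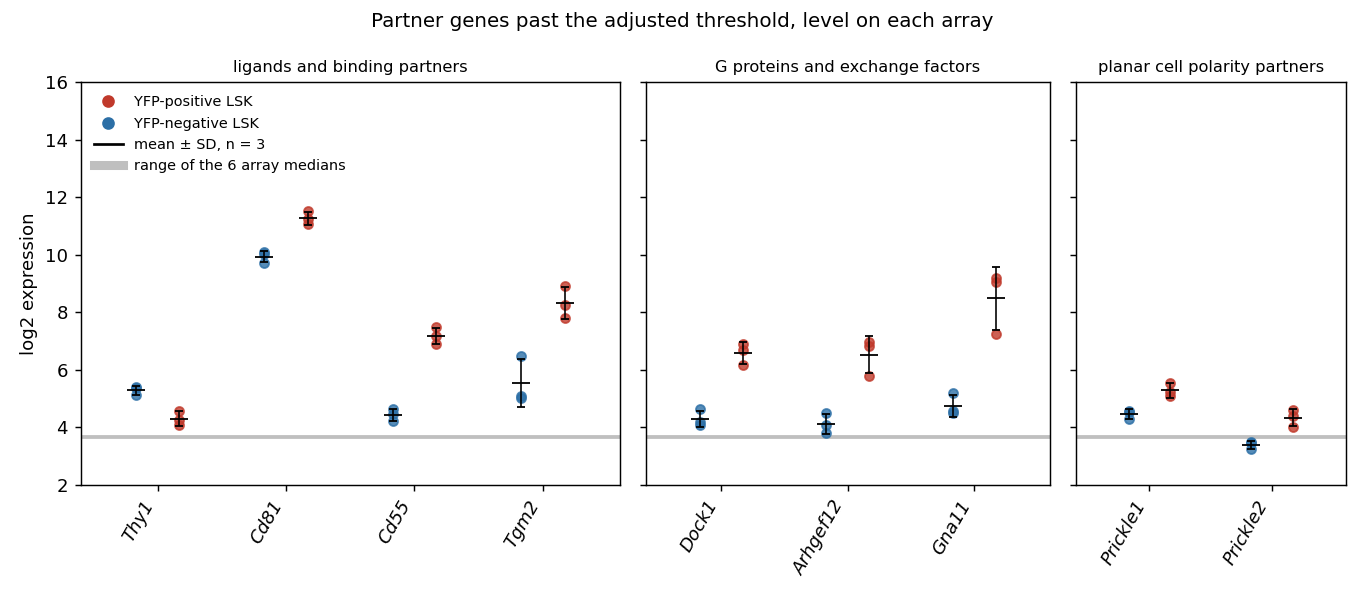
Log2 expression on each array of the 9 partner genes that passed an adjusted p of 0.05, in 3 panels by list. Points are arrays and bars are mean ± SD of 3 arrays. Thy1 is lower in YFP-positive cells and the other 8 are higher, and the 2 groups of arrays do not overlap for any of them. The genes were picked by passing the test, so the lack of overlap is no separate support.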

How the data were processed

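Gene expression was measured on 1 array for each of 6 samples, and replicates were not pooled. The deposited values are log2 expression levels of 41345 probes. Per the submitters' processing notes Partek was used, with no version given, with the background correction and normalization not given in the sources used here. That the scale is log2 was read from the values (1.53 to 13.74). Per the labels' protocols, picograms of RNA were amplified before labelling, which can distort ratios. The probe annotation gave 23521 probes with 1 gene symbol, 1814 with several and 16010 unnamed. Where a gene had several probes, the one of highest mean was kept, and no filter on level was used. Of the receptors, 27 symbols matched RefSeq (GRCm38.p6), whose table also gave gene order.

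Differences were fitted in limma 3.58.1 (R 4.3.3; lmFit, eBayes) with a single term for population. Tests were two-sided, adjusted by Benjamini and Hochberg's method across the 22180 genes, with a threshold of 0.05. The script was tested on simulated data. Summed levels are log2 of the sum of unlogged values. The alternatives were other probe summaries, filters, scalings, variance models, a replicate block and leaving out each array. The receptors and lists were chosen with earlier results of these data known. Every receptor is named; those that passed or lay above the median of all probes in either population have all array values, and up to 6 passing genes per partner list are named, with a few others chosen after their values were seen. The number of arrays limits the precision.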

Additional observations from a re-analysis of the deposited data

How the results depend on the processing

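Of the 27 receptors, 24 stayed on the same side of the threshold in every alternative fit that held them and no call reversed; these were 13 fits, or 12 for the 14 receptors with low levels, which the filter on level removed. Adgrf5, Adgrg6 and Adgrl2 passed in all 13, with differences of 6.33 to 6.81, 4.94 to 5.26 and 1.94 to 2.15, while Adgra2, Adgrg1 and Adgrg7 lost their call in 7, 9 and 8. The 6 receptors past the threshold became 3 with an unmoderated model, 3 when all probes were adjusted together, and 3 to 4 with 1 array left out. The 2 lower ones became 1 with quantile normalization, 1 with a prior variance that follows the level, and 0 with the unmoderated model or all probes adjusted together (2 at an unadjusted p under 0.05 in each), and 0 to 1 with 1 array left out. The 9 passing partner genes became 1 with the unmoderated model, 5 with all probes, and 3 to 7 with 1 array left out. All genes past the threshold, 1074, became 180, 624 and 430 to 1185 in the same fits. The cause of these changes was not tested.

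With the replicate block 4 receptors passed (Adgrg1 as the 1 lower one), 4 partner genes and 580 of all genes. Adgra2 and Adgrg7 lost their call there (limma adjusted p = 0.0785 and 0.0989). Whether same-numbered arrays were pairs is not settled. Deviations from the group means correlated at r = 0.08 to 0.17 between same-numbered arrays and at -0.11 to 0.03 between others. Each of the 6 arrays correlated best with its own number, but not all same-numbered values were above 0.1. Levels at or below the array medians limit what can be said of 14 receptors.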
